A study of Mus musculus with 6 samples.

Results

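The CXC chemokine genes described here are Cxcl1, Cxcl2, Cxcl3, Cxcl10, Cxcl14, Cxcl16, Pf4 and Ppbp, 8 of the 28822 genes in the count table. Symbols of the CXC family were chosen with earlier results of these data known. The set is not complete, since Cxcl5, Cxcl9 and Cxcl12 also had counts and are given apart below. The 8 genes were compared between mouse cells from co-cultures given BW723C86, an agonist of the serotonin receptor 5-HT2B (3 samples), and cells from co-cultures given the vehicle DMSO (3 samples). Bone marrow-derived macrophages, which are macrophages grown from marrow precursors, were cultured in the upper insert of a Transwell, whose pores pass soluble factors. Below them, in both groups, lay HT22 cells, a mouse hippocampal neuronal line, after 2 h without oxygen and glucose. The macrophage identity comes from the title of the series. The labels name macrophages together with HT22 cells, and the design text allows BV2 microglia as well. Neither the dose, the duration of treatment nor the number of animals is given in the sources used here.

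CXC chemokines are small secreted or membrane-bound proteins named for a single residue that separates their first cysteines. Those with a glutamate-leucine-arginine motif before the cysteines, such as Cxcl1, Cxcl2 and Cxcl3, draw neutrophils through the receptor Cxcr2, and macrophages make them after inflammatory stimuli that activate NF-kappaB. Pf4 and Ppbp are best known as cargo of platelet granules, Cxcl10 is induced by interferons and draws T cells through Cxcr3, and Cxcl16 is made as a membrane protein and binds Cxcr6.

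The promoters of Cxcl1, Cxcl2 and Cxcl3 are shown because these neutrophil attractants share a sequence there. Beside them stand Cxcl10, which lies apart from them on chromosome 5 and holds other kappaB matches, and Pf4, a gene of the same cluster with no match. RefSeq promoter windows of the GRCm38.p6 build were matched for 7 of the 8 members, with no entry used for Cxcl16. Each window holds the 250 bases before the annotated start, written 5′ to 3′ on the gene's own strand, and capitals mark matches, on either strand, to the kappaB consensus or to a related motif, GGGNN directly followed by TTTCC, called the TTTCC-type motif here. A match to one can overlap a match to the other.
Cxcl1, chr5:90890995-90891244, plus strand: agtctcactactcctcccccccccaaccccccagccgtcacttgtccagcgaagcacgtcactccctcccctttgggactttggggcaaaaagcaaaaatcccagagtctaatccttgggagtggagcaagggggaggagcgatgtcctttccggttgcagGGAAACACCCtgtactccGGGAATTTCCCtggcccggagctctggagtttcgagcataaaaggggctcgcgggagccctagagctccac
Cxcl2, chr5:90903649-90903898, plus strand: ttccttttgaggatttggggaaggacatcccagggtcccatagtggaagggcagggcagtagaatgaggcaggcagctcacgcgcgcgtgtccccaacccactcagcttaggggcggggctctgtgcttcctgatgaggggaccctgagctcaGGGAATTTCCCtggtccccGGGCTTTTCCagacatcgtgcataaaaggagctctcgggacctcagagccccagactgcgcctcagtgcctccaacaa
Cxcl3, chr5:90785851-90786100, plus strand: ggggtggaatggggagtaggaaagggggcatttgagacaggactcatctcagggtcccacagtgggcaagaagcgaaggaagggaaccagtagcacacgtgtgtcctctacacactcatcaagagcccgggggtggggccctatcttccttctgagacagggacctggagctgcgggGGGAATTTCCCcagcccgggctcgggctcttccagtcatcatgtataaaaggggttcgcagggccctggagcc
Cxcl10, chr5:92348890-92349139, minus strand: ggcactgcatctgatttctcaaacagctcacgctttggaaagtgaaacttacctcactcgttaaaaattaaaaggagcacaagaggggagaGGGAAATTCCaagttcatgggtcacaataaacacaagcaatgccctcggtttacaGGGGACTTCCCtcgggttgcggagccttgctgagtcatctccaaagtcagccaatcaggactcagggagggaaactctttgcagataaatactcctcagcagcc
Pf4, chr5:90772185-90772434, plus strand: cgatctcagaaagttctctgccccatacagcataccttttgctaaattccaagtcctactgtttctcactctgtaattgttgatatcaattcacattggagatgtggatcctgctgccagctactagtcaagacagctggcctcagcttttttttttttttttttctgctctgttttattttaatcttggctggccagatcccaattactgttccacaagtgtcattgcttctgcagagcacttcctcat

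Cxcl1, Cxcl2 and Cxcl3 each held the stretch gggaatttccc, a kappaB match, beginning 71, 97 and 73 bases before the start in that order. Cxcl2 held a further TTTCC-type match beginning 78 bases before the start, and Cxcl1 one on the opposite strand at 89. Cxcl10 held kappaB matches beginning 159, 104 and 103 bases before the start, the interferon-type motif, GAAANN directly followed by GAAA, at 213 and the AP-1-type motif TGANTCA at 74. Ppbp held TGANTCA at 204 and TATAAA at 30 and 8, Cxcl3 held TATAAA at 30, Cxcl14 held the interferon-type motif at 172, and Pf4 held none of the 5 motifs searched. Over all 32851 promoter windows searched the same way, on both strands, kappaB matches stood in 7.25%, against 4 of the 7 members. The TTTCC-type motif stood in 1.41% of windows and in 3 of the 7 members, and TATAAA in 12.4% of windows and in 2 of the 7. TGANTCA stood in 6.75% of windows and the interferon-type motif in 2.98%, each against 2 of the 7 members. A match describes letters in these windows and was not tested as a binding site.

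Libraries held 58841307 to 75931615 counts and 19034 to 20002 detected genes, and levels are given as CPM, which are counts relative to library size after TMM scaling, edgeR's trimmed mean method. A count of 3 corresponded to 0.0386 to 0.0523 CPM, which covers counting error only. BW723C86 replicate 2 stood apart from its group, since over all genes its counts, divided by 4, gave a chi-square over degrees of freedom of 8.84 and 6.06 when set against its group mates, where the other pairs of libraries in a group gave 2.45 to 2.76. The members' log2 fold changes are therefore also given without it. Macrophage markers were abundant in both groups, at a summed 32700 to 33900 CPM in BW723C86 cells against 37200 to 38100 CPM in DMSO cells, led by Lyz2 and Itgam. Neuronal markers were near the floor, with Map2, Nefl and Dcx at no count in any library. Their summed level was 0.222 to 0.401 CPM in BW723C86 cells against 0 to 0.141 CPM in DMSO cells (two-sided exact permutation p = 0.1, the smallest possible with 3 against 3), led by Tubb3 with 23, 8 and 16 counts in BW723C86 cells against 0, 8 and 7 counts in DMSO cells. Htr2b, which encodes the receptor of the agonist, had 124, 162 and 172 counts in BW723C86 cells against 9, 5 and 13 counts in DMSO cells. The labels do not say that replicates were separate cultures, so p-values rest on sample spread that may be technical only, and bulk RNA cannot tell fewer cells of a type from less RNA per cell.

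BW723C86 cells held a different mixture of CXC chemokine transcripts. Of the 7 members tested, 5 fell (Cxcl1, Cxcl2, Cxcl3, Pf4 and Ppbp), Cxcl16 rose, and Cxcl10 did not pass the test, which was edgeR's quasi-likelihood F test with an adjusted p threshold of 0.05. Over all 15567 genes tested, 20.7% were called lower and 21.3% higher, 42.0% in either direction. The 6 members that passed all changed at least 2-fold, as did 8.45% of all tested genes (4.05% lower and 4.41% higher). Their groups did not overlap in any of the 6, which held for 52.3% of all tested genes (26.0% lower and 26.3% higher). The median log2 fold change was -2.02 over the 7 tested members and 0.00 over all tested genes. Cxcl14 was too low to be tested, and Cxcl1 passed the filter on low counts in 1 of 3 BW723C86 libraries and in 3 of 3 DMSO libraries.

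**Figure D1:**
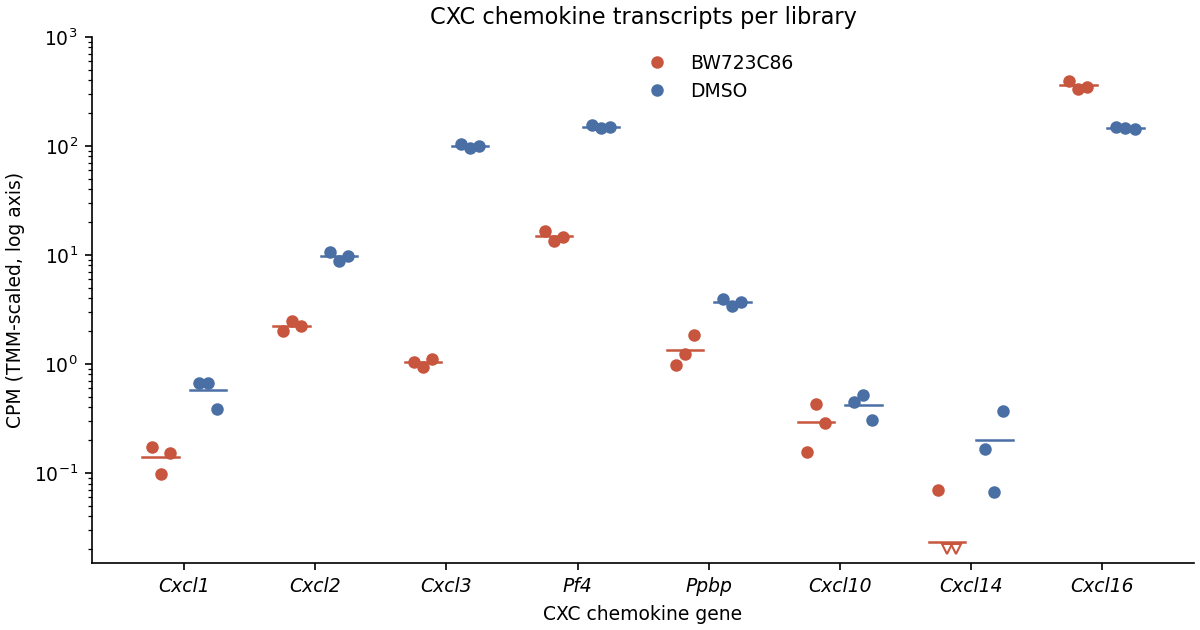
Level of each CXC chemokine gene in every library, in CPM on a log axis, with BW723C86 libraries left of DMSO libraries, points for libraries and bars for group means (n = 3 each). Triangles at the lower edge stand for libraries with no count. Cxcl3 lay between 0.945 and 1.12 CPM in BW723C86 cells against 96.2 to 104 CPM in DMSO cells, while Cxcl16 lay above DMSO in all BW723C86 libraries.

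Cxcl3, a ligand of Cxcr2 that attracts neutrophils, fell furthest of the members. It had 1.05, 0.945 and 1.12 CPM in BW723C86 cells against 104, 96.2 and 98.7 CPM in DMSO cells. Every DMSO library lay far above every BW723C86 library, and libraries within a group lay close together. The means were 1.04 ± 0.0852 CPM with BW723C86 and 99.7 ± 4.14 CPM with DMSO (SD, n = 3 each), a log2 fold change of -6.59 (SE 0.08; edgeR adjusted p = 1.4e-14). In counts this was 60, 68 and 66 in BW723C86 cells against 8106, 5804 and 7679 in DMSO cells. Ordered by log2 fold change, Cxcl3 ranked 20 of the 15567 tested genes counted from the lowest. Without BW723C86 replicate 2 its log2 fold change was -6.54.

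Cxcl2, which encodes macrophage inflammatory protein 2 and acts through the same receptor, fell as well. It had 2.01, 2.46 and 2.25 CPM in BW723C86 cells against 10.7, 8.79 and 9.81 CPM in DMSO cells. The groups were separate, with the lowest DMSO library well above the highest BW723C86 library. The log2 fold change was -2.12 (SE 0.14; edgeR adjusted p = 6.3e-08), and -2.21 without BW723C86 replicate 2.

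Cxcl1, the keratinocyte-derived chemokine of the mouse, was low in all libraries. Its counts were 10, 7 and 9 in BW723C86 cells against 52, 40 and 30 in DMSO cells, or 0.174, 0.0973 and 0.152 CPM against 0.669, 0.663 and 0.386 CPM. The DMSO libraries were all higher, DMSO replicate 3 least so. The log2 fold change was -2.02 (SE 0.51; edgeR adjusted p = 0.0063). Without BW723C86 replicate 2 it was -1.81 (edgeR adjusted p = 0.026). If a sequenced fragment was worth about 4 counts, as a pile-up of low values at multiples of 4 leaves possible, the BW723C86 value stands for very few fragments.

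The ratio between Cxcl3 and Cxcl2, which lie in the same cluster on chromosome 5, differed between groups. In BW723C86 cells there were 0.522, 0.384 and 0.496 Cxcl3 counts per Cxcl2 count, against 9.78, 11.0 and 10.1 in DMSO cells. The ratio was far lower in every BW723C86 library than in any DMSO library. The transcripts of the pair are alike in places: of all 100-base windows, 2.95% of those of Cxcl2 also occur in Cxcl3 transcripts, and 1.71% of those of Cxcl3 in Cxcl2 transcripts, so that a small part of their reads could be assigned to either.

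Pf4, or platelet factor 4, binds heparin and other glycosaminoglycans, and it fell with BW723C86. It had 16.6, 13.4 and 14.5 CPM in BW723C86 cells against 155, 145 and 149.9 CPM in DMSO cells. No libraries of the groups came near each other. The means were 14.8 ± 1.62 CPM with BW723C86 and 150 ± 5.03 CPM with DMSO (SD, n = 3 each), a log2 fold change of -3.34 (SE 0.07; edgeR adjusted p = 1.7e-12), and -3.29 without BW723C86 replicate 2.

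Ppbp, the precursor from which proteases cut the neutrophil-activating peptide NAP-2, fell by less. It had 0.977, 1.22 and 1.86 CPM in BW723C86 cells against 3.91, 3.37 and 3.71 CPM in DMSO cells. BW723C86 replicate 3 was the highest of its group and still lay below all DMSO libraries. The log2 fold change was -1.44 (SE 0.23; edgeR adjusted p = 0.00026), and -1.38 without BW723C86 replicate 2. There were 17.0, 11.0 and 7.78 Pf4 counts per Ppbp count in BW723C86 cells, against 39.7, 43.2 and 40.4 in DMSO cells. The ratio was lower in every BW723C86 library, and it varied more among them than among the DMSO libraries.

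Markers of platelets and megakaryocytes were read beside Pf4 and Ppbp. Their summed level ran from 163 to 181 CPM in BW723C86 cells against 107 to 110 CPM in DMSO cells (two-sided exact permutation p = 0.1, the smallest possible with 3 against 3), higher where Pf4 and Ppbp were lower. Of 12 listed genes, 7 were tested, with Itga2b lower, Vwf and Clec1b higher and 4 not called. Calls in this list were about as common as over all tested genes, where 42.0% were called, 20.7% lower and 21.3% higher. The sum was carried by Vwf, which encodes von Willebrand factor and is also made by endothelium, at 157 ± 7.66 CPM with BW723C86 and 90.8 ± 2.11 CPM with DMSO. Itga2b, which encodes the platelet integrin subunit alpha IIb, averaged 6.71 ± 1.15 CPM with BW723C86 and 10.4 ± 0.066 CPM with DMSO and fell (log2 fold change -0.64; edgeR adjusted p = 0.0012). The platelet glycoprotein genes were low in both groups. Gp1ba had 31, 43 and 83 counts in BW723C86 cells against 96, 45 and 78 counts in DMSO cells and did not pass (edgeR adjusted p = 0.66), and neither did Gp5, with 19, 18 and 28 counts against 16, 8 and 11 (edgeR adjusted p = 0.13). Gp9 had 0, 4 and 11 counts in BW723C86 cells against 4, 13 and 4 counts in DMSO cells, Gp1bb had 6, 2 and 4 against 6, 19 and 4, and Gp6 had 0, 0 and 4 against 4, 4 and 4, and none of these was tested. The part of platelet RNA in the levels of Pf4 and Ppbp was not tested.

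Cxcl16 encodes a chemokine made as a transmembrane protein, which also takes up oxidised lipoprotein and binds Cxcr6 on T cells. It was the only member called higher. It had 393, 332 and 349.5 CPM in BW723C86 cells against 148, 147 and 144 CPM in DMSO cells. All BW723C86 libraries were above all DMSO libraries and varied more among themselves. The means were 358 ± 31.3 CPM with BW723C86 and 146 ± 2.11 CPM with DMSO (SD, n = 3 each), a log2 fold change of 1.30 (SE 0.06; edgeR adjusted p = 1.6e-09), and 1.33 without BW723C86 replicate 2. Zmynd15 overlaps Cxcl16 on the opposite strand, and 17.4% of the 100-base windows of Cxcl16 transcripts also occur, on either strand, in Zmynd15 transcripts. Zmynd15 averaged 4.48 ± 0.0545 CPM with BW723C86 and 2.54 ± 0.618 CPM with DMSO and also rose (log2 fold change 0.82; edgeR adjusted p = 0.0029). Whether counting used strand is not given, so reads of the pair cannot be told apart where they overlap.

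Cxcl10, the interferon-induced ligand of Cxcr3, was low in both groups. It had 0.157, 0.431 and 0.287 CPM in BW723C86 cells against 0.450, 0.514 and 0.308 CPM in DMSO cells. The groups overlapped, since BW723C86 replicate 2 lay above DMSO replicate 3. The log2 fold change of -0.52 (SE 0.51) did not pass the test (edgeR adjusted p = 0.45), and without BW723C86 replicate 2 it was -0.94 (edgeR adjusted p = 0.26).

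Cxcl14, a chemokine of epithelia and other tissues, had 4, 0 and 0 counts in BW723C86 cells against 13, 4 and 29 counts in DMSO cells. It was at or near the floor with BW723C86 and low with DMSO, and it did not pass the filter for testing. Without BW723C86 replicate 1, the one BW723C86 library with any count, it was tested and called lower (edgeR adjusted p = 0.017). That call says little, since the BW723C86 libraries left had no count and Cxcl14 passed the filter through the DMSO libraries. Without BW723C86 replicate 2, BW723C86 replicate 3 or DMSO replicate 2 it was not called (edgeR adjusted p = 0.13, 0.15 and 0.056 in that order). The fit with no count filter did not call it either (edgeR adjusted p = 0.11).

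**Figure D2:**
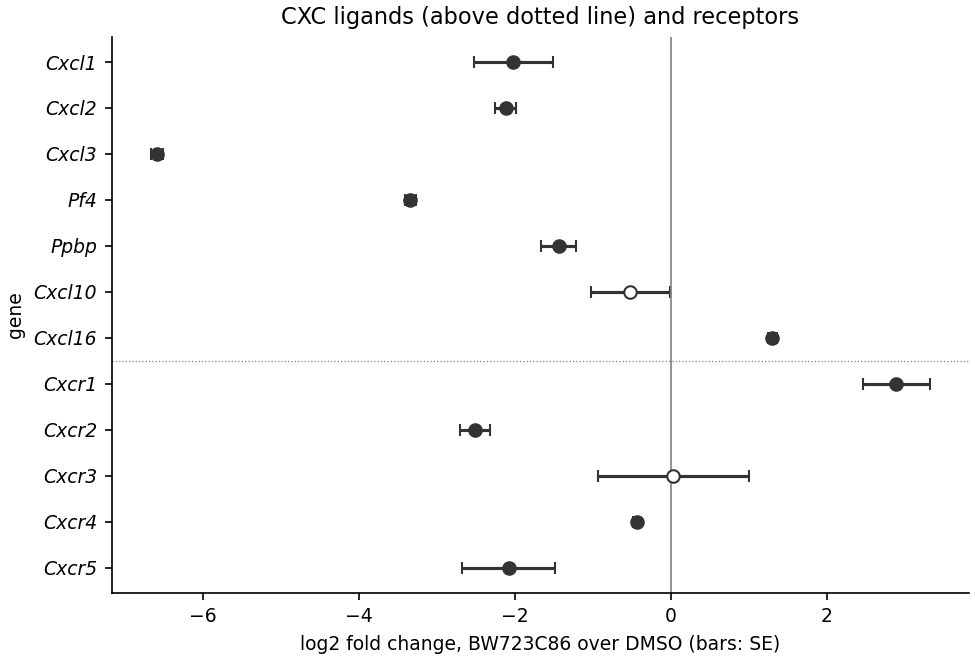
Log2 fold change, BW723C86 over DMSO, of the tested CXC chemokine genes and receptors, with bars of 1 SE on either side of the estimate from edgeR's fit and filled points for genes past the threshold. Cxcr1 and Cxcl16 lie right of 0, Cxcr3 and Cxcl10 lie near 0 with wide bars, and Cxcl3 lies farthest left at -6.59.

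Per kilobase of the longest annotated transcript, which allows levels of different genes to be compared, Cxcl16 led in BW723C86 cells and Pf4 led in DMSO cells. In BW723C86 cells the order was Cxcl16 at 133 ± 11.6, Pf4 at 25.2 ± 2.75, Ppbp at 1.25 ± 0.42, Cxcl2 at 1.08 ± 0.11 and Cxcl3 at 0.296 ± 0.0244 CPM per kb. In DMSO cells it was Pf4 at 255 ± 8.55, Cxcl16 at 54.1 ± 0.782, Cxcl3 at 28.5 ± 1.18, Cxcl2 at 4.72 ± 0.455 and Ppbp at 3.38 ± 0.255 CPM per kb. Ppbp and Cxcl2 overlapped over the BW723C86 libraries and did not over the DMSO libraries. Cxcl10, Cxcl1 and Cxcl14 followed in BW723C86 cells at 0.131, 0.0755 and 0.0127 CPM per kb, and in DMSO cells Cxcl1, Cxcl10 and Cxcl14 at 0.306, 0.190 and 0.111 CPM per kb. Of these low genes, neighbours in the order overlapped over the libraries, except that Cxcl1 and Cxcl14 did not overlap in BW723C86 cells.

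The summed level of the 8 genes was 161 ± 14 CPM per kb with BW723C86 and 347 ± 10.7 CPM per kb with DMSO (SD, n = 3 each). Cxcl16 made up 82.3% to 82.7% of that sum in BW723C86 cells against 15.3% to 16.1% in DMSO cells. Pf4 made up 15.4% to 16.0% in BW723C86 cells against 73.3% to 73.9% in DMSO cells. Cxcl3 made up 0.170% to 0.202% in BW723C86 cells against 8.17% to 8.33% in DMSO cells. The shares differed by less than 1 percentage point between libraries of a group for these 3 genes, so BW723C86 replicate 2 did not stand apart in them. Without scaling by length the sum was 378 ± 32.4 CPM with BW723C86 and 410 ± 11.3 CPM with DMSO, and the groups overlapped, since the transcript of Cxcl16 is long and that of Pf4 short.

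**Figure D3:**
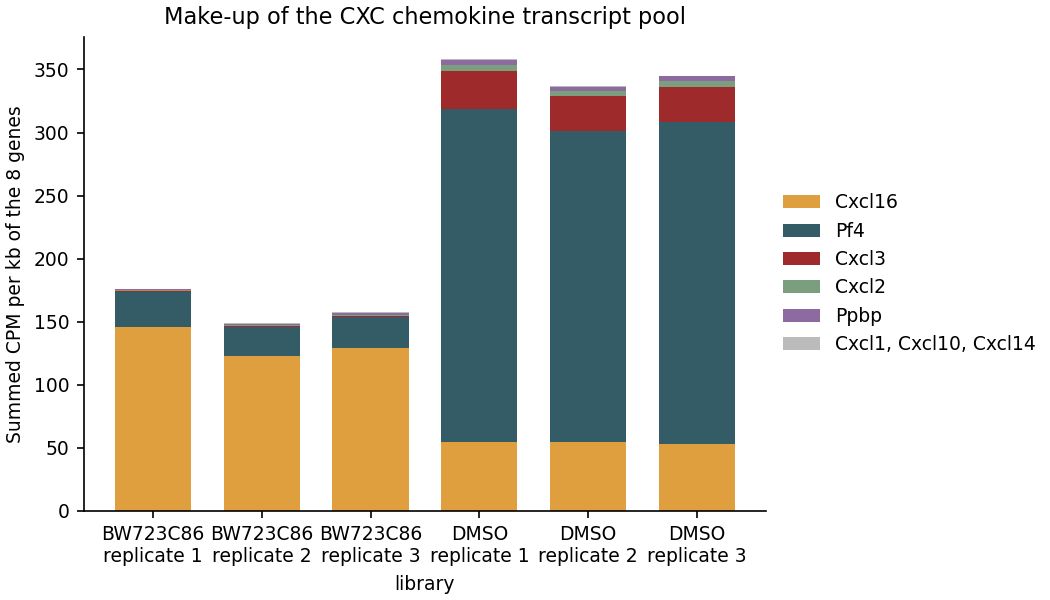
Summed level of the 8 CXC chemokine genes in each library, in CPM per kilobase of longest transcript, stacked by gene on a linear axis from 0, with BW723C86 libraries left of DMSO libraries. The BW723C86 bars are mostly Cxcl16, while the DMSO bars are mostly Pf4 with a visible band of Cxcl3.

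Of the 7 other CXC ligands listed, Cxcl5, Cxcl9 and Cxcl12 were in the table and none was tested. Cxcl5, a further ligand of Cxcr2, had 9, 0 and 9 counts in BW723C86 cells against 5, 0 and 0 in DMSO cells. Cxcl12, the ligand of Cxcr4, had 9, 20 and 3 counts in BW723C86 cells against 12, 0 and 0 in DMSO cells. Cxcl9, an interferon-induced ligand of Cxcr3, had 0, 4 and 0 counts in BW723C86 cells and none in DMSO cells. All 3 were at levels where libraries of a group ran from the floor to a few counts.

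Of the receptors for these ligands, 8 were in the table and 5 were tested: Cxcr2, Cxcr4 and Cxcr5 fell, Cxcr1 rose, and Cxcr3 did not pass. The median log2 fold change of the 5 was -0.44. Of all tested genes, 20.7% were called lower and 21.3% higher. Cxcr5 passed the filter on low counts through the DMSO libraries and Cxcr1 through the BW723C86 libraries. Cxcr2, the main neutrophil receptor for Cxcl1, Cxcl2, Cxcl3 and processed Ppbp, had 55, 90 and 102 counts in BW723C86 cells against 608, 453 and 555 counts in DMSO cells. All BW723C86 libraries lay far below the DMSO libraries (log2 fold change -2.51, SE 0.19; edgeR adjusted p = 3.4e-07; -2.49 without BW723C86 replicate 2). Cxcr1, its close relative, went the other way, with 74, 81 and 116 counts in BW723C86 cells against 9, 19 and 13 counts in DMSO cells. The groups did not overlap (log2 fold change 2.89, SE 0.43; edgeR adjusted p = 0.00012; 3.03 without BW723C86 replicate 2). There were 0.743, 1.11 and 0.879 Cxcr2 counts per Cxcr1 count in BW723C86 cells, against 67.6, 23.8 and 42.7 in DMSO cells.

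Cxcr4, the receptor of Cxcl12, fell by a small amount, at 62.6 ± 0.962 CPM with BW723C86 and 85.0 ± 1.81 CPM with DMSO (log2 fold change -0.44, SE 0.05; edgeR adjusted p = 6.8e-06; -0.47 without BW723C86 replicate 2). Cxcr5, the receptor of Cxcl13 on B cells, had 10, 5 and 5 counts in BW723C86 cells against 47, 31 and 21 in DMSO cells. It was called lower (log2 fold change -2.08, SE 0.60; edgeR adjusted p = 0.014), also without BW723C86 replicate 2 (-1.84; 0.049), but not without BW723C86 replicate 3 (0.055), DMSO replicate 1 (0.085) or DMSO replicate 2 (0.056). Cxcr3, the receptor of Cxcl10, had 0, 31 and 6 counts in BW723C86 cells against 4, 14 and 20 in DMSO cells, with BW723C86 replicate 2 the highest of all. Its log2 fold change of 0.03 (SE 0.97; edgeR adjusted p = 0.98) was -1.79 without that library. Cxcr6, the receptor of Cxcl16, had 4, 16 and 0 counts in BW723C86 cells and none in DMSO cells. Of the atypical receptors, Ackr1 had no count in BW723C86 cells against 0, 8 and 4 counts in DMSO cells, and Ackr3 had none in any library.

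Of 11 genes whose products cut or bind CXC chemokines, 7 fell, 2 rose and 2 did not pass, with a median log2 fold change of -0.16. The shares over all tested genes were 20.7% lower and 21.3% higher. Among the 7, Mmp9 passed the filter on low counts through the DMSO libraries. Mmp8, a collagenase that also cleaves CXC chemokines, averaged 716 ± 56.7 CPM with BW723C86 and 2420 ± 46.1 CPM with DMSO and fell (log2 fold change -1.76; edgeR adjusted p = 7.5e-11). Mmp2, a gelatinase, averaged 8.08 ± 0.371 CPM with BW723C86 and 77.1 ± 1.2 CPM with DMSO and fell (log2 fold change -3.25; edgeR adjusted p = 6.4e-13). Mmp12, the macrophage elastase, rose, at 9460 ± 779 CPM with BW723C86 and 4420 ± 33.8 CPM with DMSO (log2 fold change 1.10; edgeR adjusted p = 6.6e-09). Among the proteoglycans that bind chemokines, Sdc4 and Srgn fell and Sdc1 rose, with log2 fold changes of -1.74, -0.71 and 0.93. Serglycin, encoded by Srgn, stores Pf4 in granules, and averaged 154 ± 17.9 CPM with BW723C86 and 253 ± 5.99 CPM with DMSO. Adam10, the protease that sheds Cxcl16 from the membrane, averaged 113 ± 1.75 CPM with BW723C86 and 127 ± 3.68 CPM with DMSO, a small fall (log2 fold change -0.16, SE 0.04; edgeR adjusted p = 0.0096), against the rise of its substrate. Adam17 (log2 fold change -0.10; edgeR adjusted p = 0.16) and Dpp4, which trims the end of Cxcl10 (0.37; edgeR adjusted p = 0.064), did not pass.

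Genes of IL-1, TNF and NF-kappaB signalling, which drive Cxcl1, Cxcl2 and Cxcl3, moved in both directions. They were listed together with other transcription factors, among them Egr1, Fos, Jun, Cebpb, Cebpd and Hif1a. Among 34 genes of this list tested there were 14 lower, 7 higher and 13 uncalled, and the median log2 fold change was -0.10. Over all tested genes, 20.7% were called lower and 21.3% higher. Il1b, which encodes interleukin-1 beta, averaged 2.18 ± 0.396 CPM with BW723C86 and 11.8 ± 4.09 CPM with DMSO and fell (log2 fold change -2.44, SE 0.24; edgeR adjusted p = 1.5e-05). Tnf averaged 16.2 ± 1.08 CPM with BW723C86 and 17.7 ± 0.703 CPM with DMSO and did not pass (log2 fold change -0.13; edgeR adjusted p = 0.22). The Toll-like receptor genes Tlr2 and Tlr4 fell, with log2 fold changes of -1.37 and -0.81, and so did Hif1a, a hypoxia-response factor, at -1.51. The NF-kappaB targets Nfkbia and Nfkbiz, which encode inhibitor-type proteins of the pathway, fell with log2 fold changes of -0.45 and -1.16. The immediate-early factors Egr1, Fos and Jun rose, with log2 fold changes of 2.31, 1.24 and 0.80, while the neutrophil attractants were lower.

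Genes whose products act on the decay or stability of chemokine mRNAs gave 7 lower, 2 higher and 1 not passing of 10 tested, with a median log2 fold change of -0.25. All tested genes gave 20.7% lower and 21.3% higher. Zfp36 encodes tristetraprolin, which binds AU-rich elements such as those of Cxcl1 and Cxcl2 mRNA and promotes their decay. It averaged 115 ± 6.02 CPM with BW723C86 and 46.8 ± 1.19 CPM with DMSO and rose (log2 fold change 1.29, SE 0.05; edgeR adjusted p = 6.2e-10). Its relative Zfp36l1 fell by a like amount, at 85.1 ± 6.51 CPM with BW723C86 and 208 ± 3.79 CPM with DMSO (log2 fold change -1.29). Zc3h12a, which encodes the RNase regnase-1, fell (log2 fold change -0.50; edgeR adjusted p = 0.00035). Their part in the chemokine levels was not tested.

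Interferon pathway genes, read beside Cxcl10, gave 4 lower, 11 higher and 12 not passing of 27 tested, with a median log2 fold change of 0.15. All tested genes gave 20.7% lower and 21.3% higher. Oasl2, an interferon-induced gene, averaged 16.4 ± 0.577 CPM with BW723C86 and 6.83 ± 1.32 CPM with DMSO and rose (log2 fold change 1.27; edgeR adjusted p = 2.8e-06). Irf1, a factor that acts at the Cxcl10 promoter, fell (log2 fold change -0.45; edgeR adjusted p = 4.7e-05). Irf7, a factor of the interferon response, had a log2 fold change of 0.26 and did not pass (edgeR adjusted p = 0.14), and Ifnb1 had 3 counts in 1 BW723C86 library and none elsewhere.

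Markers of neutrophils and monocytes were lower together with the neutrophil attractants and Cxcr2. For the calls in this paragraph, the shares over all tested genes were 20.7% lower and 21.3% higher, 42.0% in either direction. All 11 tested of 14 neutrophil markers fell, while Mpo, Camp and Retnlg were too low in both groups to be tested. The summed level of the neutrophil markers ran from 716 to 822 CPM in BW723C86 cells against 2660 to 2730 CPM in DMSO cells (two-sided exact permutation p = 0.1, the smallest possible). Mmp8 alone made up most of that sum, averaging 716 CPM with BW723C86 and 2420 CPM with DMSO, so the sum mainly restates Mmp8. Ngp came next at 18.6 CPM with BW723C86 and 72.5 CPM with DMSO. Mmp8 and Cxcr2 stand in other lists above as well. Ly6g, a defining neutrophil marker, had 0, 7 and 0 counts in BW723C86 cells against 175, 109 and 203 counts in DMSO cells. All 10 monocyte markers fell, summing to 2520 to 2710 CPM in BW723C86 cells against 8220 to 8310 CPM in DMSO cells (exact permutation p = 0.1), led by Chil3 and Itgam. Dendritic cell markers summed to 4540 to 4860 CPM in BW723C86 cells against 940 to 943 CPM in DMSO cells (exact permutation p = 0.1), led by Itgax and H2-Aa, with 5 of 7 tested higher, as Cxcl16 was. Lymphocyte and mast cell markers summed to 57.9 to 63.3 CPM in BW723C86 cells against 107 to 112 CPM in DMSO cells (exact permutation p = 0.1), with 6 of 9 tested lower and none higher. Among them the mast cell protease gene Cpa3 fell (log2 fold change -2.13), and Kit, which encodes the stem cell factor receptor, did not pass (-0.05; edgeR adjusted p = 0.54). Microglia markers gave 3 lower, 2 higher and 1 uncalled of 6 tested. Of these, Tmem119 and Gpr34 fell, with log2 fold changes of -2.72 and -2.62. Stromal markers gave 0 calls of 4 tested, at a summed 3.20 to 5.83 CPM in BW723C86 cells against 5.54 to 6.88 CPM in DMSO cells. Without BW723C86 replicate 2 the log2 ratios of the summed levels were -1.89 for neutrophil, -1.71 for monocyte, 2.36 for dendritic cell, -0.88 for lymphocyte and mast cell and 0.71 for platelet markers. The part of these cell-type signatures in the chemokine levels was not tested.

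Cxcl1, Cxcl2, Cxcl3, Pf4 and Ppbp lie together on chromosome 5, in the order Ppbp, Pf4, Cxcl3, Cxcl1, Cxcl2 on 1 strand, and all 5 fell by different amounts. The flanking gene Mthfd2l, an enzyme of mitochondrial folate metabolism, fell as well, at 2.48 ± 0.508 CPM with BW723C86 and 4.49 ± 0.479 CPM with DMSO (log2 fold change -0.85; edgeR adjusted p = 0.0021). On the other side Rassf6 had no count in BW723C86 cells against 55, 36 and 49 counts in DMSO cells (edgeR adjusted p = 4.1e-05), and 5830473C10Rik had 0, 12 and 0 counts against 43, 36 and 34 (edgeR adjusted p = 0.015). Afp, which encodes alpha-fetoprotein and lies beyond them, was higher, at 1.13 ± 0.358 CPM with BW723C86 and 0.423 ± 0.157 CPM with DMSO (edgeR adjusted p = 0.011). Rassf6 and 5830473C10Rik passed the filter on low counts through the DMSO libraries, so their calls say little about that flank, where Afp was the other gene tested. The growth factor genes Epgn, Ereg, Areg and Btc were too low to test. Around Cxcl10, Nup54 fell, at 15.7 ± 0.339 CPM with BW723C86 and 21.1 ± 1.6 CPM with DMSO (edgeR adjusted p = 0.00068), and Sdad1 and Scarb2 did not pass. Around Cxcl16, Pelp1 and Zmynd15 rose, Arrb2 fell and Med11 did not pass.

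**Figure D4:**
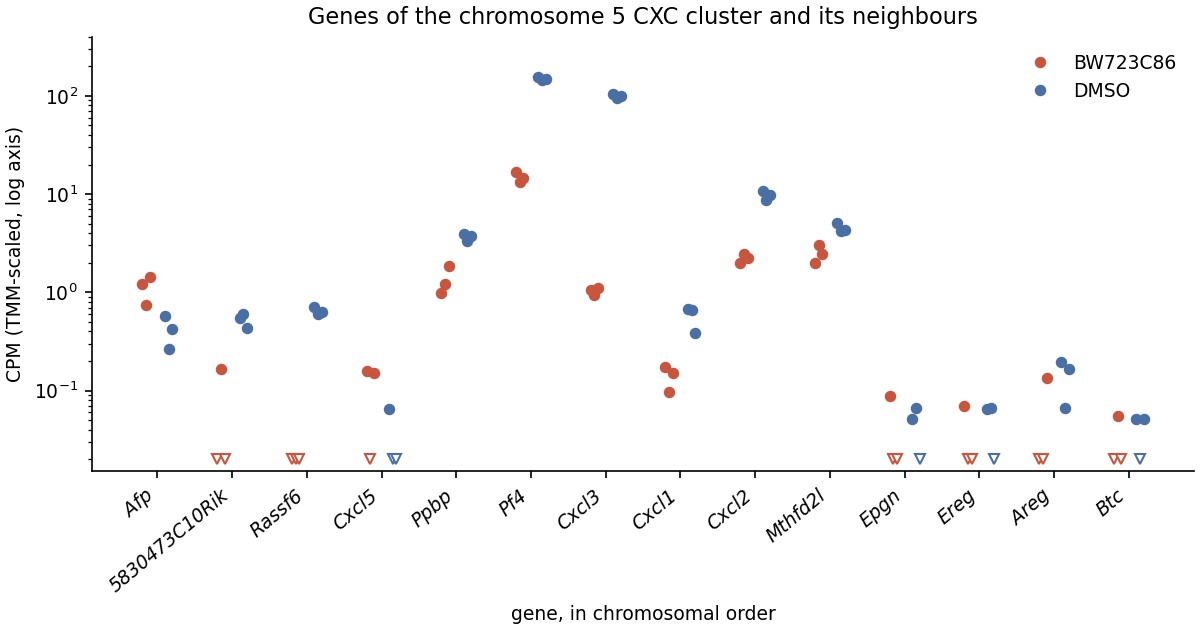
Levels of the genes of the chromosome 5 chemokine cluster and its flanks in map order, in CPM on a log axis, with BW723C86 points left of DMSO points and triangles for libraries with no count. Among genes with counts in every library, Cxcl3 and Pf4 show the widest gaps between groups, and Afp is the tested gene with BW723C86 above DMSO.

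For each called member with a mean of at least 5 CPM, the protein-coding genes with the nearest profile were found among 9635 genes, by Euclidean distance between log2(CPM + 0.5) values centred over the 6 libraries. Nearest to Cxcl3 were Thbs1, which encodes thrombospondin-1, at 61.5 ± 2.76 CPM with BW723C86 and 2220 ± 20.4 CPM with DMSO, and Serpinb2, which encodes plasminogen activator inhibitor 2, at 1.96 ± 0.182 CPM with BW723C86 and 360 ± 9.16 CPM with DMSO. Their distances of 1.08 and 1.45 were larger than those of the nearest genes of Pf4, Cxcl2 and Cxcl16. Where libraries of a group lie close together, a small distance mostly means a like fold change. Shared regulation was not tested. Nearest to Pf4 were Mmp2 and Ltf, which encodes lactoferrin of neutrophil granules, at distances of 0.206 and 0.240. Nearest to Cxcl2 were Mtus1 and Ankrd33b at 0.149 and 0.186. Nearest to Cxcl16 were Pld3, which encodes a lysosomal nuclease, and Cebpa, a myeloid transcription factor, at 0.0864 and 0.0868, and Pld3 averaged 1790 ± 145 CPM with BW723C86 and 709 ± 3.05 CPM with DMSO.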

How the data were processed

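Bulk RNA sequencing of 6 samples was analysed, 3 given BW723C86 and 3 given DMSO, grouped by the treatment label. Per the labels' protocols, poly(A) RNA was copied into dUTP-marked cDNA and sequenced as paired ends. The submitters' processing notes name the tools fastp, HISAT2, StringTie and edgeR and the builds GRCm39 and GRCh38, without roles or versions. The authors deposited estimated counts for each gene, whose values were whole numbers already. The value 4 occurs 4613 times, against 2904 for 3 and 2552 for 5, so the number of counts a fragment is worth is uncertain. Total counts ran from 58841307 to 75931615.

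Symbols for 27005 of 28822 gene identifiers, transcript lengths and gene order came from GENCODE M21, a different build, whose gene coordinates are not printed. Promoters came from RefSeq tables of GRCm38.p6. Counts were tested with edgeR 4.0.16 in R 4.3.3 (TMM, default filter of about 0.15 CPM in 3 libraries, robust quasi-likelihood F test, two-sided, Benjamini-Hochberg over 15567 genes, threshold 0.05), a procedure tested on simulated data. SE belongs to the log2 fold change of BW723C86 against DMSO. Summed marker CPM were compared by two-sided exact permutation. All libraries were kept as separate replicates, since every pair differed beyond sampling noise. The members and lists were chosen with earlier results of these data known. Named genes were the members, the ligands and receptors with counts, up to 6 called genes of smallest p and at least 5 CPM per pathway list with 11 fixed genes, chromosomal neighbours, the 2 most abundant markers per list, Htr2b and nearest profiles. Other marker genes were chosen after their values were seen. Some genes within the rule are not reported here. Alternatives tried were DESeq2 1.42.0, limma-voom (limma 3.58.1), other scalings, a non-robust fit, other filters, counts divided by 4, a replicate block, a test against a fold of 1.2, each library left out, and mean transcript length.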

Additional observations from a re-analysis of the deposited data

How the results depend on the processing

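Over 17 alternatives to the fit, 187 of 196 recomputed log2 fold changes of members and receptors kept their direction and their side of the threshold. The count of members called ran from 5 to 7 and that of receptors called from 3 to 4. The 7 arose only without BW723C86 replicate 1, where Cxcl14 had no BW723C86 count left and was added. Cxcl2, Cxcl3, Cxcl16, Pf4 and Ppbp kept their calls in all 17, with log2 fold changes of -2.21 to -2.05, -6.67 to -6.54, 1.22 to 1.33, -3.43 to -3.29 and -1.74 to -1.26 in that order. Cxcl1 kept its call in 15 (-2.24 to -1.81), and Cxcl10 stayed uncalled in 15 (-0.94 to -0.23). Both fell below the filter with counts divided by 4 and with at least 1 CPM in 3 libraries, which left 5 members called. A test against a fold of 1.2 gave 3208 genes past the threshold, against 6534, and 3 mRNA decay genes, against 9, since it asks for more than a difference from 0. With mean in place of longest transcript length, 14 of 16 ranks of the members in the 2 groups were unchanged, with Cxcl2 and Ppbp exchanged in BW723C86 cells, and the Cxcl16 share was 83.8% to 84.1% with BW723C86 and 16.4% to 17.3% with DMSO. Cxcr3 reversed to log2 fold changes of -0.03 by library total, -0.0028 by DESeq2, -0.89 by limma-voom and -0.58 with a replicate block, and ran from -1.79 to 0.58 with single libraries left out, below 0 without BW723C86 replicate 2 (-1.79) or DMSO replicate 1 (-0.43). The cause was not tested. Library totals in place of TMM moved the median log2 fold change of all genes to -0.07. Cxcl1, Cxcl10, Cxcl14, Cxcr3 and Cxcr5 are limited by depth.

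Replicate numbers are shared by the groups, but deviations of same-numbered samples correlated at 0.031, -0.0247 and -0.00481, so they share only a number. With a replicate block, 6 members and 6179 genes passed the threshold, and not every sample correlated best with its own number.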
